A study of Mus musculus with 4 samples.

Results

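The subject is a set of 10 genes of genomic imprinting in the embryonic mouse heart, taken by symbol from the 32285 genes of the count matrices: H19, Meg3, Phlda2, Grb10, Dlk1, Peg3, Nnat, Plagl1, Mest and Zfp57. All 10 were found, and all 10 passed the filter on low counts in every test. Hearts of C57BL/6J embryos were dissected at E10.5 and dissociated, and single-cell 3′ RNA libraries were made from 2 wild-type (Wt) samples and 2 samples homozygous for the Cyp51 I383V point mutation (Ho), named Wt1, Wt2, Ho1 and Ho2. Cyp51 encodes an enzyme of cholesterol synthesis, and the mutation was introduced by CRISPR/Cas9, a treatment that the labels give for all 4 samples. How many embryos were pooled per library is not given in the sources used here, and nothing states that the libraries of a genotype came from separate litters, so the p-values measure the spread between these libraries, which may be technical.

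Imprinted genes are transcribed mainly from 1 parental copy, because DNA methylation laid down in the egg or sperm marks imprinting control regions and is kept through the divisions of the embryo. Many of them regulate growth, with paternally expressed genes often promoting and maternally expressed genes often restraining it, and they lie in clusters whose members share control elements. In the fetal heart and vessels the H19 and Igf2 cluster is known as a source of abundant transcripts that decline after birth. The counts add the RNA of both parental copies, so they give the level of each gene and not the copy it came from.

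Each library was divided into 7 populations by marker genes, called gates. Cells of the Tnnt2 gate (a troponin of cardiomyocytes) had at least 10 Tnnt2 UMIs per 10000 UMIs, where a UMI is 1 counted mRNA molecule, and cells of the Crabp1 gate (a retinoic acid binding protein of pharyngeal and crest-derived mesenchyme) had at least 5 per 10000. The gates for Cdh5 (endothelium), Hapln1 (cushion mesenchyme), Isl1 (second heart field), Upk3b (epicardium) and Epcam (epithelium) required at least 2 UMIs and at least 1 per 10000, and a cell that met several gates or none was left out. Over the 4 libraries the Tnnt2 gate held 8845 cells, the Hapln1 gate 3576, the Isl1 gate 2109, the Crabp1 gate 1501, the Cdh5 gate 486, the Epcam gate 303 and the Upk3b gate 296, of 29168 cells used. Another 4346 cells met the Cdh5 and the Hapln1 limits and no other. The Cdh5 gate thus held only a minority of the cells above the Cdh5 limit. By the median over libraries, all 4 other markers of the cell type were highest in their own gate in 6 gates, and 3 of 4 were in the Isl1 gate, since Fgf8 was higher in the Tnnt2 gate.

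Wt1 had 97179971 UMIs in 8908 cells, Wt2 had 105282895 in 7154, Ho1 had 113478594 in 6980 and Ho2 had 98379564 in 6126. Median depth per cell was 10561 UMIs (Wt1), 14215.5 (Wt2), 15658 (Ho1) and 15831.5 UMIs (Ho2), so Wt1 was the shallowest. The 10 genes took 0.304% (Wt1) and 0.320% (Wt2) of all UMIs in the Wt libraries and 0.282% (Ho1) and 0.285% (Ho2) in the Ho libraries. Any pair of libraries shared 9 to 28 cell barcodes, at most 0.401% of the smaller library.

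Ho1 stood apart from the other libraries. Its Isl1 gate held 46 cells against 822 in Wt1, 633 in Wt2 and 608 in Ho2, its Crabp1 gate 13 against 1344, 65 and 79, and its Epcam gate 0 against 138, 33 and 132. Sums over fewer than 20 cells entered no test, which left 26 sums of library and gate, and the genotype comparison was possible in 5 gates. The 5 cardiomyocyte markers summed to 4152 counts per 1000000 UMIs of the gate (CPM) in the Isl1 gate of Ho1 and to 605 in Wt1, 1054 in Wt2 and 993 in Ho2. The 4 second heart field markers other than Isl1 summed to 6.37 CPM there, with 3 of them at 0, against 53.9 (Wt1), 45.2 (Wt2) and 99.5 (Ho2), so the Isl1 gate of Ho1 did not carry the markers of its label. In the Cdh5 gate the cardiomyocyte markers summed to 2964 CPM in Ho1 and to 374, 456 and 342 in the others. Myl7 was the most abundant of the cardiomyocyte markers in both gates and none was at 0; their part in the levels of the 10 genes in Ho1 was not tested. In the Tnnt2 gate 5 blood markers, with the globin gene Hba-x the most abundant in Ho1, summed to 239.65 CPM in Ho1 against 3.88 (Wt1), 7.95 (Wt2) and 14.57 (Ho2). Ho1 was also the only library of these 4 with Xist at high level, 254 CPM, and without Ddx3y UMIs, so it differed in sex from the other 3, and the part of sex in its values was not tested.

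Positions are those of GENCODE on GRCm38. H19 (chr7:142575529-142578143, minus strand) and Meg3 (chr12:109541001-109571726, plus strand) are long noncoding RNA genes, and the others encode proteins. Phlda2 lies at chr7:143501545-143503150 and Peg3 at chr7:6703892-6730431, both on the minus strand, and Dlk1 at chr12:109452823-109463336 on the plus strand, 77.7 kb before Meg3. Grb10 spans chr11:11930508-12038683 on the minus strand. The plus strand carries Plagl1 (chr10:13060504-13131694), Mest (chr6:30723547-30748465), Zfp57 (chr17:37001163-37010635) and Nnat (chr2:157560078-157562522), which lies within the span of Blcap on the other strand. The end of Mest overlaps Copg2 on the other strand.

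The zinc finger protein ZFP57 binds the methylated hexamer TGCCGC at imprinting control regions, and this word was looked for on both strands from 250 bases before to 50 bases after the start of each promoter in RefSeq (GRCm38.p6). It was present in 11.6% of 32851 promoters and in 6 of the 15 promoters listed for 9 of the 10 genes, of which 2 are overlapping windows of Mest. The 6 belong to Mest, Plagl1, Meg3, Nnat and Grb10, and 1 other promoter each of Mest, Meg3 and Grb10 did not hold it. The 250 bases before the start are printed for Mest and Plagl1, which shared their highest level in the Cdh5 gate, and for Meg3, whose highest gate median was in the Isl1 gate. All are on the plus strand, at chr6:30737800-30738049, chr10:13090582-13090831 and chr12:109540746-109540995, and capitals mark GCGGCA, the hexamer as read on the other strand.
Mest: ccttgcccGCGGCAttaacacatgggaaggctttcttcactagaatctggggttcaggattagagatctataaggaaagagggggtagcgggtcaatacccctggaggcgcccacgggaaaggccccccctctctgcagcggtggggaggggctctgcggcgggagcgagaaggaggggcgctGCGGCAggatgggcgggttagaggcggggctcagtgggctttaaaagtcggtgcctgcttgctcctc
Plagl1: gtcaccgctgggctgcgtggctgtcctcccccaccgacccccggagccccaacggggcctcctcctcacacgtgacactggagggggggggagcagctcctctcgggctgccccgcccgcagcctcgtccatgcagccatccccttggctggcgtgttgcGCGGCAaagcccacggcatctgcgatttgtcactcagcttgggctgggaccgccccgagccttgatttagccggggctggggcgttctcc
Meg3: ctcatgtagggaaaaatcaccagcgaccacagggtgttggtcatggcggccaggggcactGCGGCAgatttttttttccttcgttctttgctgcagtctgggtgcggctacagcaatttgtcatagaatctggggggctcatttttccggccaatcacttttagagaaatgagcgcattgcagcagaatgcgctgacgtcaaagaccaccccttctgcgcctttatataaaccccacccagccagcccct
The Mest stretch holds the word at 2 places and the others at 1. They hold 14 (Mest), 19 (Plagl1) and 10 (Meg3) CpG dinucleotides, against a median of 6 over all promoters of this length. A match is a description of the sequence, and methylation was not measured in these samples.

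All 10 genes differed among the gates (edgeR quasi-likelihood F test with the library as a block, Benjamini-Hochberg adjusted p under 0.05), where 85.8% of the 11377 genes tested did. In the 70 contrasts of 1 gate against the mean of the other gates, 24 were called higher and 18 lower. The Tnnt2 gate had 9 of 10 genes called, 2 higher and 7 lower, against 66.6% of all genes tested. The Isl1 gate had 8 called, 7 of them higher (background 30.6%), and 7 of these 8 calls, all but Meg3, held without Ho1. The Cdh5 gate had 8 called, with 4 in each direction (background 38.4%). Of these, the call of Dlk1 was lost with loose gates (-0.61) and without Wt1 (-0.62), Wt2 (-0.76) or Ho2 (-0.59), and that of Zfp57 with loose gates (0.40) and without Wt1 (0.39). The remaining gates had fewer: 5 in the Hapln1 gate (background 40.3%), 5 in the Epcam gate (27.5%), 4 in the Upk3b gate (31.3%) and 3 in the Crabp1 gate (26.0%). Over all gates 10 of the 42 calls were lost in at least 1 alternative setting where the gene was still tested. Among them was Plagl1 in the Isl1 gate with DESeq2 (0.68) and with cells of several gates assigned (0.43). Without Ho2, Plagl1 in the Epcam gate (-1.96) was another. Meg3 in the Tnnt2 gate (-0.50) lost its call at -0.27, -0.37 and -0.40. Grb10 in the Hapln1 gate (-0.29) lost it at -0.35 and -0.24, and Zfp57 in the Upk3b gate (0.45) at 0.43 and 0.39. With at least 10 counts in every sum 27 of the 42 contrasts stayed called, because fewer genes were tested. The median log2 fold change of the 10 genes was -0.74 in the Tnnt2 gate and 0.59 in the Isl1 gate, where the medians over all genes were 0.02 and 0.00. In a sum over a gate, fewer cells with a transcript and less of it per cell cannot be told apart.

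**Figure D1:**
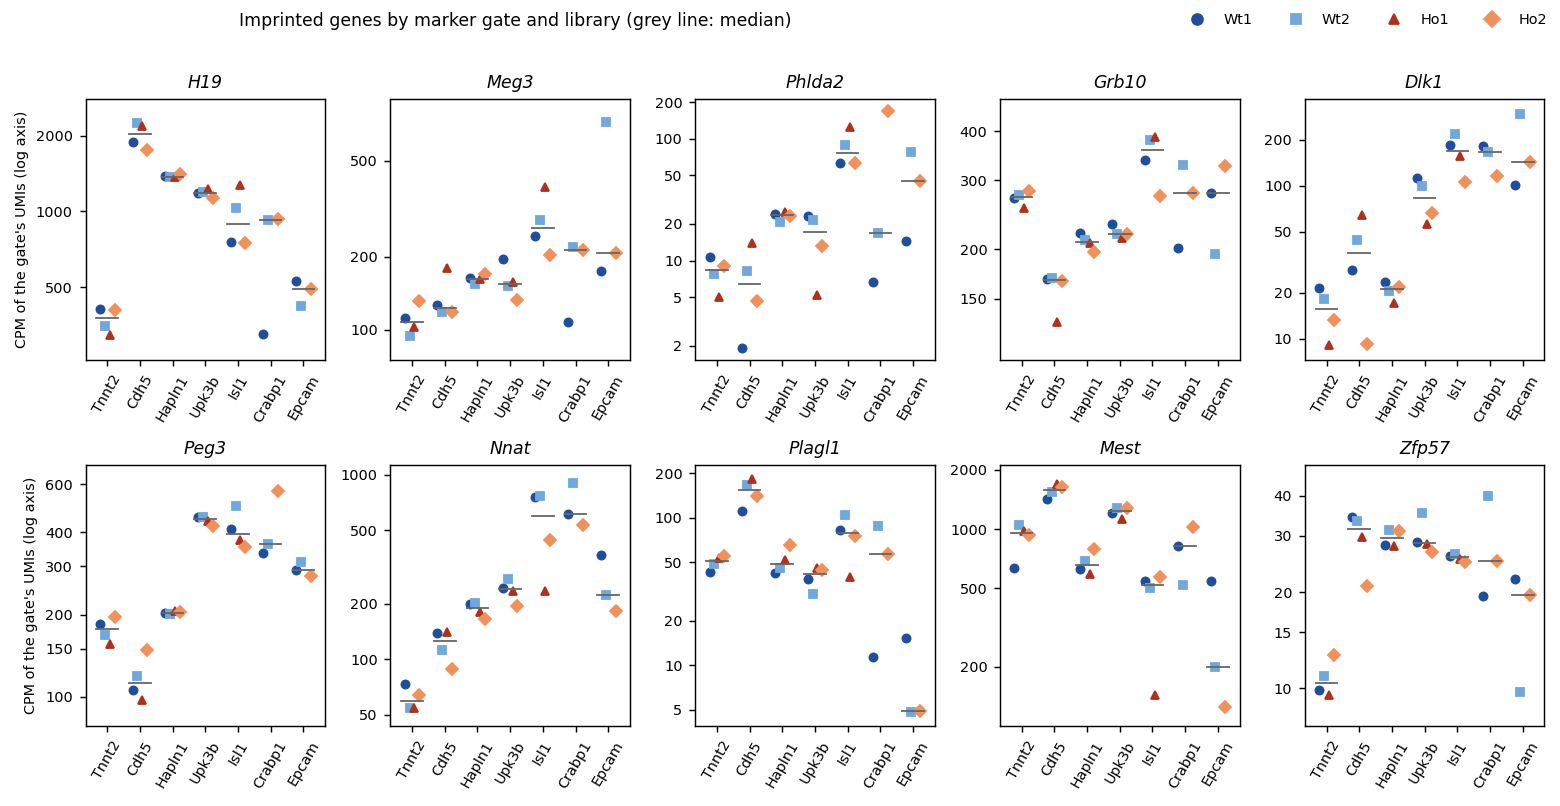
Level of each of the 10 genes (CPM of the gate's UMIs, log axis) in the 7 gates, with 1 point per library in its own colour and marker and a grey line at the median. H19 ran from a median of 378 CPM in the Tnnt2 gate to 2035 in the Cdh5 gate, and the Crabp1 and Epcam gates lack a point for Ho1.

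**Figure D2:**
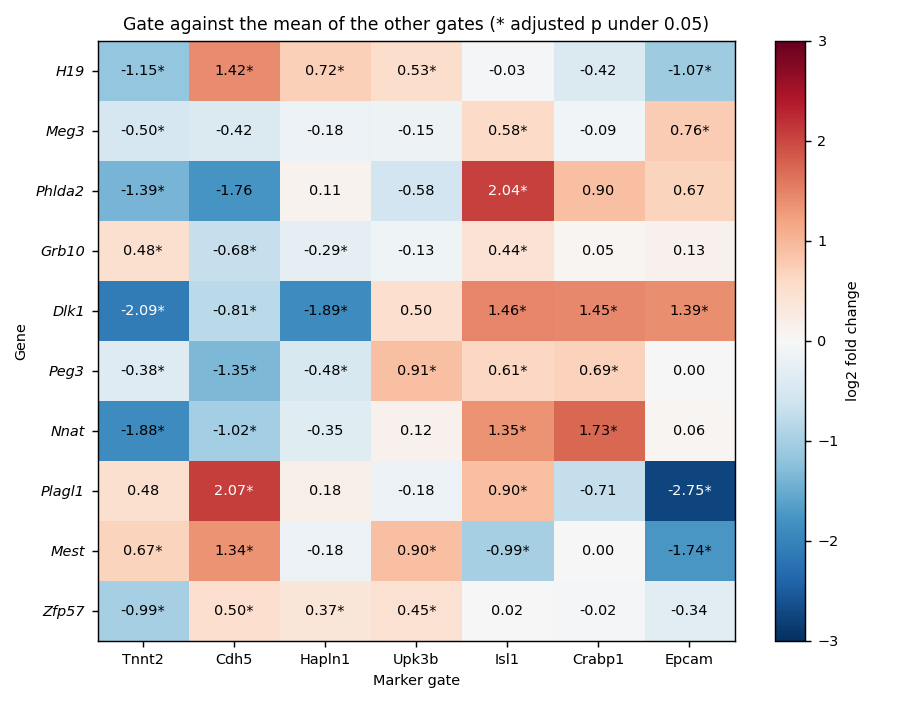
Log2 fold change of each gene in each gate against the mean of the other gates, from the edgeR fit over 26 sums, printed in each cell and coloured from blue (lower) to red (higher), with an asterisk for an adjusted p under 0.05. Of 70 contrasts 42 were called, and the lowest was Plagl1 in the Epcam gate at -2.75.

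The maternally expressed genes had 3 kinds of profile. H19, a noncoding RNA that restrains growth, was highest in the Cdh5 gate, with 1885 CPM (Wt1), 2242 (Wt2), 2185 (Ho1) and 1758 CPM (Ho2). Its lowest gate median was in the Tnnt2 gate, with 408, 350, 322 and 406 CPM in the same order, far below the Cdh5 values, although the Crabp1 gate of Wt1 (327 CPM) lay in that range. The log2 fold change against the other gates was 1.42 ± 0.14 (SE) in the Cdh5 gate (edgeR adjusted p = 1.39e-08) and -1.15 ± 0.17 in the Tnnt2 gate (adjusted p = 2.04e-06). H19 was also higher in the Hapln1 and Upk3b gates (0.72 and 0.53) and lower in the Epcam gate (-1.07). In every library the Cdh5 level was above the Hapln1 level and that above the Upk3b level, without overlap among these 3 gates. The Isl1 level of Ho1 (1275 CPM) lay above its Upk3b level (1229 CPM), and the Isl1 levels of the other libraries lay below theirs.

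Meg3, a noncoding RNA of the Dlk1 cluster, had its highest median over libraries in the Isl1 gate, with 243 CPM (Wt1), 284 (Wt2), 390 (Ho1) and 204 CPM (Ho2). The lead did not hold in every library, since the Epcam level was higher in Wt2 (720 CPM) and Ho2 (207 CPM) and the Crabp1 level was higher in Ho2 (214 CPM). The Isl1 contrast was 0.58 ± 0.18 (edgeR adjusted p = 0.0159), and it was no longer called without Ho1 (0.45, adjusted p = 0.0818) or without Wt1 (0.53, adjusted p = 0.0574). In the Epcam gate Wt1 had 174 CPM, below its Isl1 level. The call there, 0.76 ± 0.23 (edgeR adjusted p = 0.0150), was lost without Wt2 (0.24, adjusted p = 0.461) and with loose gates (0.18, adjusted p = 0.614).

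Phlda2, a small pleckstrin-homology protein known to limit placental growth, varied by 11.8 times between its highest and lowest gate medians, the most of the 4 maternally expressed genes. It had 63.7 CPM (Wt1), 88.5 (Wt2), 124 (Ho1) and 63.0 CPM (Ho2) in the Isl1 gate. In the Tnnt2 gate it had 10.8, 7.77, 4.98 and 9.00 CPM, all far below. The Isl1 contrast was 2.04 ± 0.37 (edgeR adjusted p = 0.000211) and remained at 1.92 without Ho1. The Crabp1 values spread widely, at 6.69 CPM in Wt1, 16.8 in Wt2 and 171 in Ho2.

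Grb10, an adaptor that dampens insulin and IGF receptor signalling, varied least, by 2.14 times between its highest and lowest gate medians. It had 337, 380.5, 387 and 273 CPM in the Isl1 gate of the 4 libraries, in the order Wt1, Wt2, Ho1, Ho2. In the Cdh5 gate it had 168.5, 168.8, 131 and 166 CPM, below every Isl1 value. Contrasts were 0.48 ± 0.10 in the Tnnt2 gate (edgeR adjusted p = 0.000209), 0.44 ± 0.10 in the Isl1 gate and -0.68 ± 0.12 in the Cdh5 gate (adjusted p = 6.72e-05). In plain CPM the Tnnt2 median was 273 (254 to 281). That was below the medians of the Isl1 (359), Crabp1 (279) and Epcam (278) gates. The contrasts use TMM, whose factors were low for the Tnnt2 sums (0.81 to 0.87), and the part of this scaling was not tested.

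Among the paternally expressed genes, Dlk1, Nnat and Peg3 were low in cardiomyocytes. Dlk1, a membrane protein related to Notch ligands that marks precursor cells, had 184 CPM (Wt1), 217 (Wt2), 156 (Ho1) and 105 CPM (Ho2) in the Isl1 gate. In the Tnnt2 gate it had 21.6, 18.1, 9.14 and 13.3 CPM, with no overlap. Contrasts were 1.46 ± 0.18 in the Isl1 gate (edgeR adjusted p = 1.43e-06) and -2.09 ± 0.21 in the Tnnt2 gate (adjusted p = 7.33e-09). It was also higher in the Crabp1 and Epcam gates (1.45 and 1.39) and lower in the Hapln1 gate (-1.89).

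Nnat, a small membrane protein of the endoplasmic reticulum, had its highest median in the Crabp1 gate, at 616 CPM in Wt1, 907 in Wt2 and 538 in Ho2. Its Isl1 values were 761, 765, 236 and 443 CPM over Wt1, Wt2, Ho1, Ho2, which overlapped the Crabp1 values. Its Tnnt2 values were 72.9, 54.2, 54.3 and 64.3 CPM, below every value of the other gates. Contrasts were 1.73 ± 0.17 in the Crabp1 gate (edgeR adjusted p = 8.92e-08), 1.35 ± 0.14 in the Isl1 gate and -1.88 ± 0.18 in the Tnnt2 gate (adjusted p = 1.79e-09).

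Peg3, a large zinc finger protein, had its highest median in the Upk3b gate, with 455.5, 455.3, 440 and 422 CPM in the same order of libraries. The Isl1 values (411, 499, 376 and 353 CPM) and the Crabp1 values (337, 362 and 566 CPM in Wt1, Wt2 and Ho2) overlapped with these, the Isl1 gate being higher in Wt2 and the Crabp1 gate in Ho2. Each library had its lowest level in the Cdh5 gate, with 106, 119, 97.6 and 148 CPM, below every Upk3b value. Contrasts were 0.91 ± 0.09 in the Upk3b gate (edgeR adjusted p = 3.53e-08), 0.69 ± 0.11 in the Crabp1 gate (adjusted p = 7.45e-05), 0.61 ± 0.09 in the Isl1 gate (adjusted p = 2.03e-05) and -1.35 ± 0.11 in the Cdh5 gate (adjusted p = 8.65e-10). It was lower also in the Tnnt2 gate (-0.38) and the Hapln1 gate (-0.48).

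Plagl1 and Mest were highest in the Cdh5 gate. Plagl1, a zinc finger transcription factor that acts on other imprinted genes, had 111 CPM (Wt1), 165 (Wt2), 182 (Ho1) and 141 CPM (Ho2) in the Cdh5 gate. The next gate, Isl1, had 82.3, 104, 39.8 and 75.1 CPM and did not overlap with it. The Cdh5 contrast was 2.07 ± 0.23 (edgeR adjusted p = 8.93e-08), and the Epcam gate was lowest, at 15.2 CPM in Wt1, 4.87 in Wt2 (1 UMI) and 4.90 in Ho2.

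Mest, an enzyme of the alpha/beta hydrolase fold named for its expression in mesoderm, had 1419 CPM (Wt1), 1538 (Wt2), 1697 (Ho1) and 1641.5 CPM (Ho2) in the Cdh5 gate. It had 637, 1045, 983 and 934 CPM in the Tnnt2 gate, where Wt1 was lowest. Contrasts were 1.34 ± 0.23 in the Cdh5 gate (edgeR adjusted p = 4.81e-05), 0.90 ± 0.23 in the Upk3b gate and 0.67 ± 0.24 in the Tnnt2 gate (adjusted p = 0.0149). The Tnnt2 call was lost in 3 settings, at 0.53 without Ho1 (edgeR adjusted p = 0.0556), 0.50 without Wt2 (adjusted p = 0.152) and 0.46 with cells of several gates assigned (adjusted p = 0.102). The Epcam gate was lower, by -1.74 ± 0.35.

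Zfp57, which keeps methylation at imprinting control regions and is grouped with these genes for that role, was scarce in cardiomyocytes. It had 9.85 CPM (Wt1), 10.9 (Wt2), 9.53 (Ho1) and 12.7 CPM (Ho2) in the Tnnt2 gate. The Hapln1 gate had 28.2, 31.2, 27.9 and 31.0 CPM, above all of those. The Tnnt2 contrast was -0.99 ± 0.10 (edgeR adjusted p = 4.5e-09), and the Hapln1 contrast was 0.37 ± 0.09 (adjusted p = 0.00229). The highest gate median was in the Cdh5 gate, at 31.6 CPM (20.9 to 34.5), and the Cdh5, Hapln1 and Upk3b levels overlapped. Contrasts in the Cdh5 gate (0.50 ± 0.13) and the Upk3b gate (0.45 ± 0.13) were larger, though each lost its call in some settings. Of 9 other genes of imprint maintenance that were tested, 7 were called in the Tnnt2 gate, 1 higher and 6 lower, where 66.6% of all genes were called and 31.2% were lower. Dnmt3a, a de novo DNA methyltransferase, was higher at 0.57, whereas Uhrf1, which recruits the maintenance methyltransferase, was lower at -0.68 and the insulator protein Ctcf at -0.47.

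Other imprinted genes were read from lists of 24 paternally and 30 maternally expressed genes. In the Isl1 gate 6 of 18 tested paternally expressed genes were called, all higher, where 30.6% of all genes were called and 16.4% were higher. Among them were Magel2 (3.35), Ndn (1.08), Peg10 (0.82) and Usp29 (0.66). Of 21 maternally expressed genes 6 were higher there, among them Asb4 (0.91) and the Meg3 neighbours Mirg (0.73) and Rian (0.57), and 3 were lower, Gatm (-2.45), Tspan32 (-2.40) and Cd81 (-0.48). In the Cdh5 gate 8 of 18 paternally expressed genes were called, 4 higher and 4 lower, where 38.4% of all genes were called. Of 21 maternally expressed genes 4 were lower there and 9 were higher, where 17.2% of all genes were lower and 21.1% higher. The 9 higher ones were led by Gatm (4.60) and included the cell cycle inhibitor Cdkn1c (1.82). Igf2, the paternally expressed growth factor beside H19, was higher in the Cdh5 gate (1.13).

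Genes of 1 cluster did not all share a profile. Over the 26 sums, which share libraries and depth, H19 and Igf2 (72.6 kb apart) had a Pearson r of 0.811 between log2(CPM + 1) values, Meg3 and Rian 0.857, Peg3 and Usp29 0.843, and Meg3 and Dlk1 0.694. Phlda2 and Cdkn1c, 40.5 kb apart, had an r of -0.09. Their highest gates differed, with Cdkn1c at a median of 8806 CPM in the Cdh5 gate, where Phlda2 had its lowest median of 6.43 CPM. Mest and the overlapping Copg2 had an r of -0.55, and Nnat and Blcap 0.42. Within single libraries, across cells of the Hapln1 gate thinned to 5000 UMIs, H19 and Igf2 had an r of 0.483 (Wt1), 0.530 (Wt2), 0.520 (Ho1) and 0.558 (Ho2). These correlations are descriptions, and sums of 1 library are not independent.

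**Figure D3:**
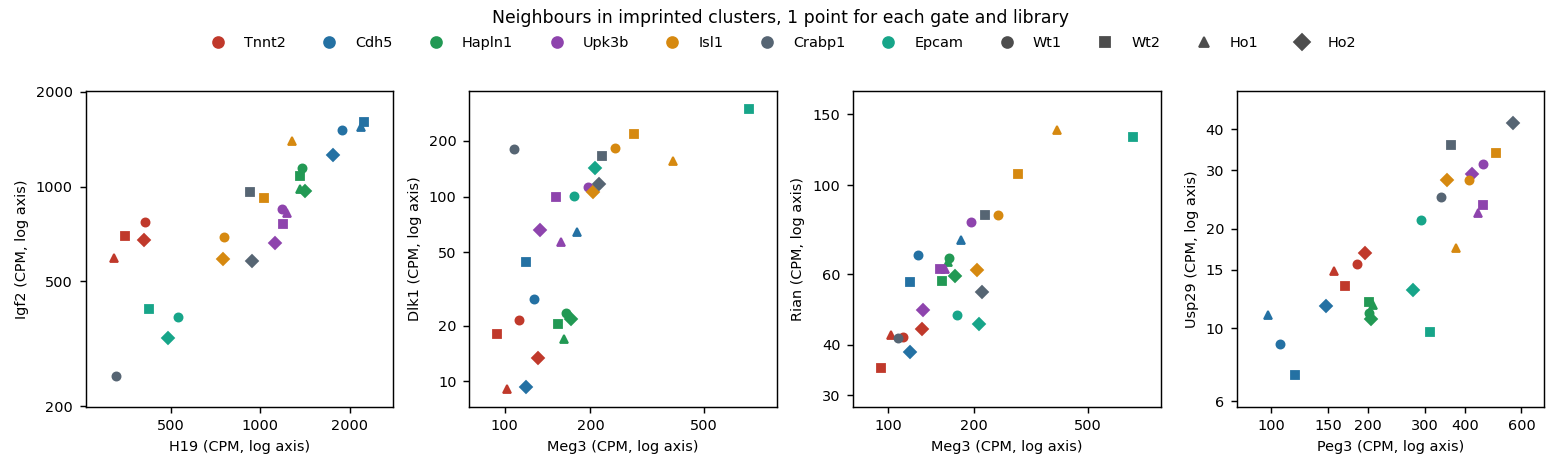
Levels of 4 pairs of cluster neighbours (CPM, log axes) in the 26 sums of library and gate, 1 point per sum, coloured by gate and with a marker for each library. H19 and Igf2 had an r of 0.811, Meg3 and Dlk1 0.694, Meg3 and Rian 0.857, and Peg3 and Usp29 0.843.

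The genes most like each member over the 26 sums, of 11376 tested, were named by the highest r between log2 CPM values of the edgeR fit, which use TMM and a prior count of 1. They were Fbn1 (0.937), Ccdc80 (0.937) and Tmed3 (0.936) for H19, and Nsg1 (0.910), Rhobtb3 (0.896) and Dnajc9 (0.886) for Nnat. For Peg3 they were Mgat3 (0.911), Ppfibp2 (0.904) and Daam2 (0.903), for Plagl1 Adgra2 (0.883), Hand2os1 (0.867) and Selenbp1 (0.8605), and for Zfp57 Litaf (0.916), Mob1a (0.916) and Trf (0.905). Mest was most like Hspa1b (0.842), Tdo2 (0.815) and Selenbp1 (0.815), and Dlk1 like Sclt1 (0.8585), Mapk8ip1 (0.836) and Tmod2 (0.831). Grb10 was most like Tubb2b (0.889), Meg3 like Map3k1 (0.854), and Phlda2 like Dlg3 (0.7499) and, among the 10 genes, Meg3 (0.735).

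The share of cells with a UMI bears on how a low level is spread. With each cell thinned to 2000 UMIs, H19 was found in a median of 90.81% of Cdh5 cells over the 4 libraries, and in 5 of 83 macrophages, which served as the reference for free RNA. Dlk1 was found in 27.21% of Isl1 cells and in 2.69% of Tnnt2 cells, against 1 of 83 macrophages. Phlda2 was found in 8.13% of Isl1 cells and in 1.36% of Tnnt2 cells, with 1 of 83 macrophages. The reference rests on 1 cell with a UMI for either gene, so these shares do not tell low expression in Tnnt2 cells from free RNA. Without thinning Dlk1 was found in 60.06% of Isl1 and 7.88% of Tnnt2 cells, against 5 of 84 macrophages.

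Cardiomyocytes were not uniform in these genes. The Tnnt2 gate was split at 20 Myl2 UMIs per 10000, Myl2 being the regulatory light chain of ventricular myosin, into Myl2-high cells (632, 1197, 1677 and 903 in Wt1, Wt2, Ho1 and Ho2) and Myl2-low cells (783, 1108, 1409 and 1136). The split was chosen after the data were seen, because an atrial subset defined by Sln held under 20 cells in every library. Other genes moved with it, so the subsets differed in more than Myl2. Nr2f1 had 63.4 to 98.2 CPM in Myl2-low and 2.94 to 6.68 CPM in Myl2-high cells. Hey2 had 0.766 to 1.34 CPM and 24.4 to 31.9 CPM, and Sln 8.76 to 19.6 CPM and at most 0.608 CPM. Of the 10 genes 9 were called, 3 higher and 6 lower in Myl2-high cells, where 50.8% of 13588 genes tested were called.

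Mest had 312 CPM (Wt1), 417 (Wt2), 329 (Ho1) and 403 CPM (Ho2) in Myl2-low cells. In Myl2-high cells it had 1055, 1550, 1447 and 1474 CPM, so every library was higher there. The log2 fold change was 2.06 ± 0.04 (edgeR adjusted p = 6.74e-21). Grb10 (0.51) and Plagl1 (0.42) were also higher.

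Nnat went the other way, with 102, 94.4, 93.4 and 105 CPM in Myl2-low cells of the libraries in that order. It had 35.8, 22.0, 26.6 and 22.6 CPM in Myl2-high cells, all lower, with a log2 fold change of -1.79 ± 0.07 (edgeR adjusted p = 1.31e-15). Dlk1 (-1.40 ± 0.11), Phlda2 (-1.01 ± 0.16), Peg3 (-0.98 ± 0.05), Zfp57 (-0.64 ± 0.09) and H19 (-0.32 ± 0.04) were lower too. Meg3, at 0.04 ± 0.05 (edgeR adjusted p = 0.462), was not called. Its plain CPM were lower in Myl2-high cells of Wt1, Wt2 and Ho2 and higher in those of Ho1. Outside the 10 genes, Peg10 (-2.25) and Calcr (-3.21) were lower and Cdkn1c (1.09) higher in Myl2-high cells. Meg3 was called lower in a stricter setting of the gates (-0.43, edgeR adjusted p = 6.32e-08) and higher in a looser one (0.72, adjusted p = 1.58e-09). Its direction thus depended on the setting. The value for Dlk1 went from -2.60 in the stricter to -0.31 in the looser setting. The stricter setting also changed the division by Myl2, with 1226 Myl2-high and 1535 Myl2-low cells in Ho1 against 1677 and 1409. The parts of the gate limits and of this division were not tested.

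**Figure D4:**
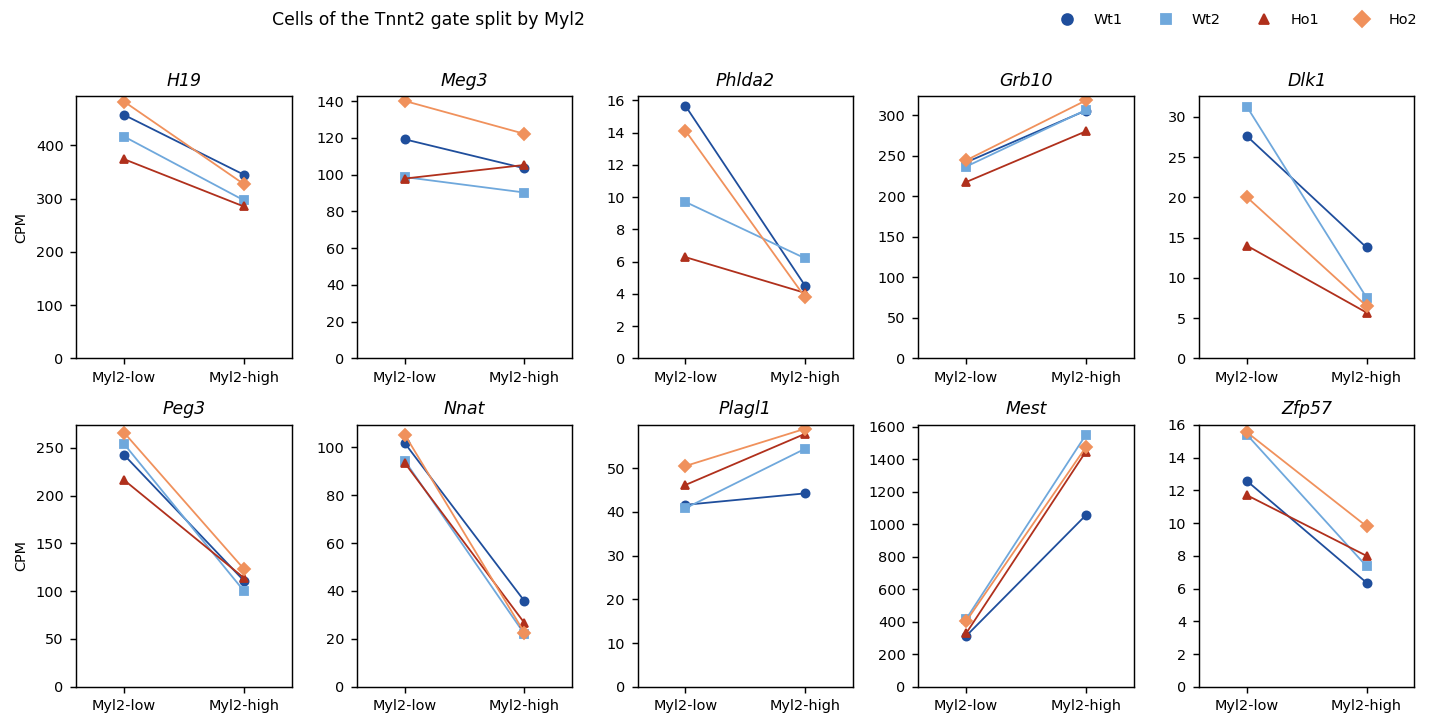
Level of each gene (CPM, linear axis from 0) in Myl2-low and Myl2-high cells of the Tnnt2 gate, with a line joining the subsets of each library. Mest rises in all 4 libraries (329 to 1447 CPM in Ho1), and Nnat falls in all 4.

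Whether the Cyp51 mutation changed these genes was asked in 5 gates, with edgeR on 2 Ho and 2 Wt sums. None of the 50 values was called, and 8 had an unadjusted p under 0.05, 6 of them lower and 2 higher in Ho. Few genes of any kind were called, 0.035% of 14288 genes called in the Tnnt2 gate, 0.0237% of 12673 in the Hapln1 gate, 0.0119% of 8391 in the Upk3b gate, 0% in the Cdh5 gate and 0% in the Isl1 gate. At an unadjusted p under 0.05 stood 985 genes in the Tnnt2 gate, 438 of 8738 in the Cdh5 gate, 750 in the Hapln1 gate, 318 of 12373 in the Isl1 gate and 350 in the Upk3b gate. DESeq2 called 1 of the 10, Dlk1 in the Tnnt2 gate. The smallest p that an exact permutation test allows for 1 value in 2 against 2 libraries is 0.333.

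Dlk1 had 3 of these 8 values, all with a lower level in Ho. In the Tnnt2 gate its Wt libraries had 372 and 679 UMIs (21.6 and 18.1 CPM) and its Ho libraries 488 and 483 UMIs (9.14 and 13.3 CPM). Both Ho libraries were below both Wt libraries, at a log2 fold change of -0.85 ± 0.15 (unadjusted p = 0.000217, edgeR adjusted p = 0.186). The value ranged from -1.07 to -0.61 over 16 settings and passed the threshold in 7 of them. These include the fits without Wt1, Wt2 or Ho2, in which 1 group held 1 library and the other group alone gave the spread. They also include a block by replicate number, as given and crossed, though the labels do not say what same-numbered libraries share beyond the number. Without Ho1 the value was -0.64 and was not called. Over all cells of a library Dlk1 had 104 (Wt1), 70.0 (Wt2), 24.4 (Ho1) and 45.8 CPM (Ho2), the same order as in the gate. These levels also depend on composition. The Crabp1 gate, where Dlk1 was high, held 15.1% (Wt1), 0.91% (Wt2), 0.19% (Ho1) and 1.29% (Ho2) of the cells. The Isl1 gate, where it was also high, held 9.23%, 8.85%, 0.66% and 9.92% in the same libraries. The part of composition in the whole-library levels was not tested. The macrophages had 1, 0, 8 and 0 Dlk1 UMIs in that order of libraries, of 349344, 764449, 842759 and 178929 UMIs. That is 9.49 CPM in Ho1, near its Tnnt2 level of 9.14 CPM, and no UMI in Wt2, where the Tnnt2 level was 18.1 CPM. The part of free RNA, and of the blood transcripts of Ho1, in the Tnnt2 difference was not tested.

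In the Upk3b gate Dlk1 had 112 CPM (Wt1), 99.8 (Wt2), 56.6 (Ho1) and 66.0 CPM (Ho2), again without overlap. The log2 fold change was -0.76 ± 0.17 (edgeR adjusted p = 0.934). In the Isl1 gate it was -0.62 ± 0.23 (edgeR adjusted p = 1), from -0.98 with cells of several gates assigned and -0.88 without Ho1, whose gate of 46 cells lacked the second heart field markers, to -0.34 without Ho2. Dlk1 was at -0.18 ± 0.14 in the Hapln1 gate and at 0.19 ± 0.59 in the Cdh5 gate (edgeR adjusted p = 0.899 and 0.992). In the Cdh5 gate it had 28.1 and 44.4 CPM in Wt, 64.1 in Ho1 and 9.31 in Ho2. The Ho libraries thus lay on either side of Wt. The log2 fold change was -1.96 without Ho1 and 0.87 without Ho2, each from 1 Ho library, so that only Wt gave the spread.

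Nnat in the Isl1 gate was at -1.11 ± 0.31 (edgeR adjusted p = 1), and its 148 UMIs of Ho1 came from 46 cells. Phlda2 in the Upk3b gate, with 23.3 and 21.5 CPM in Wt and 5.21 and 13.1 CPM in Ho, was at -1.19 ± 0.38 (edgeR adjusted p = 1), from 7 UMIs in Ho1. Plagl1 in the Hapln1 gate had 42.5 and 45.8 CPM in Wt and 51.3 and 65.1 CPM in Ho, at 0.40 ± 0.11 (edgeR adjusted p = 0.652). The remaining values with an unadjusted p under 0.05 were Nnat in the Hapln1 gate, at -0.20 ± 0.08 (edgeR adjusted p = 0.785), and Plagl1 in the Tnnt2 gate, at 0.22 ± 0.09 (adjusted p = 0.724). Over the alternative settings Nnat ranged from -1.68 to -0.74 in the Isl1 gate and from -0.30 to -0.12 in the Hapln1 gate, Phlda2 from -2.03 to -0.77 in the Upk3b gate, and Plagl1 from 0.17 to 0.56 in the Hapln1 gate and from 0.14 to 0.31 in the Tnnt2 gate. The other 42 values lay between -0.56 and 0.95. Over the 5 gates H19 lay between -0.09 and 0.21, Meg3 between -0.24 and 0.36, and Grb10 between -0.15 and -0.04. Peg3 lay between -0.28 and 0.15, Mest between -0.47 and 0.22, and Zfp57 between -0.32 and 0.05.

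On the TMM scale of the fits, Ho and Wt did not overlap for 3 of 10 genes in the Tnnt2 gate, where 38.5% of all genes did not. The same held for 2 in the Cdh5 gate (33.8%), 3 in the Hapln1 gate (35.7%), 4 in the Isl1 gate (31.5%) and 4 in the Upk3b gate (32.0%). Both directions together, these shares were near the background. In the Isl1 gate all 4 lay below Wt, where 17.8% of all genes lay below and 13.7% above. In the Upk3b gate 3 lay below and 1 above, where 16.1% and 16.0% of all genes did. These differences by direction were not tested. Plagl1 lay above Wt in the Tnnt2, Hapln1 and Upk3b gates and below it in the Isl1 gate, and Nnat lay below in the Hapln1, Isl1 and Upk3b gates. No gene of the other imprinted or imprint maintenance lists was called in any of the 5 gates.

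**Figure D5:**
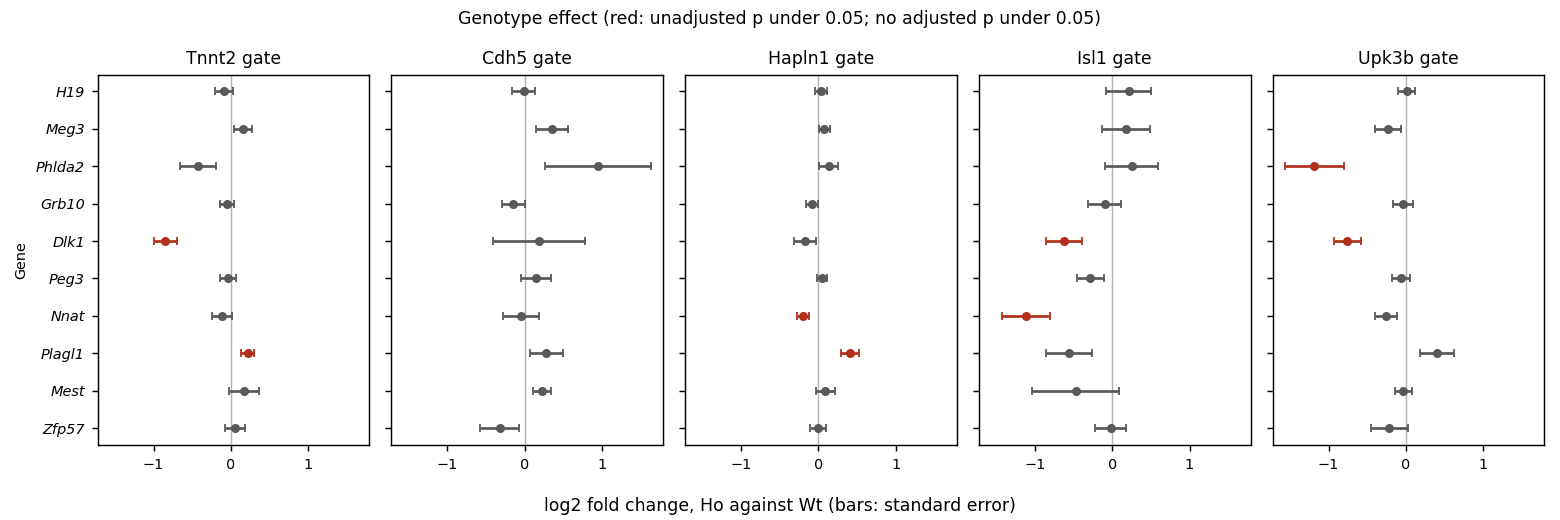
Log2 fold change of Ho against Wt for each gene in 5 gates, from edgeR, with bars of 1 SE and in red the values with an unadjusted p under 0.05. No value passed an adjusted p of 0.05, and Dlk1 was at -0.85 in the Tnnt2 gate and -0.76 in the Upk3b gate.

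Whether the genotype effect differed among gates was tested in 1 fit over the 26 sums, in which the Crabp1 and Epcam gates had 1 Ho library each, Ho2, assumed to vary like the others. None of the 10 genes was called, where 0.0237% of 12678 genes were, and DESeq2 called 1 of the 10, Phlda2 (adjusted p = 0.019). In the edgeR fit Phlda2 had the smallest p (9.37e-05, edgeR adjusted p = 0.136), and it alone of the 10 had an unadjusted p under 0.05, with Crabp1 levels of 6.69 and 16.8 CPM in Wt and 171 CPM in Ho2. Without Ho1, which leaves Ho2 as the only Ho library, it was called (edgeR adjusted p = 0.0409). In the 20 sums of the 5 gates with 2 libraries of each genotype its p was 0.238, Nnat (0.0284) and Plagl1 (0.0302) had an unadjusted p under 0.05, and none of the 10 was called (edgeR adjusted p = 1 for each), where 0.021% of 14256 genes were. In the fit over 26 sums Dlk1 had an unadjusted p of 0.516 from the edgeR fit, so the difference of its effects between gates was not shown, and the others lay between 0.055 (Peg3) and 0.902 (Zfp57).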

How the data were processed

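The authors aligned the reads to mm10 with Cell Ranger 6.1.1 and deposited raw UMI counts per gene and cell, without normalization, for 4 libraries. Cells used here had 500 to 50000 UMIs, 500 to 6000 genes and no more than 20% mitochondrial UMIs, and Scrublet in scanpy 1.11.5 removed 746, 464, 440 and 334 doublets from Wt1, Wt2, Ho1 and Ho2. Counts were summed per library and gate. edgeR 4.0.16 in R 4.3.3 (quasi-likelihood, TMM, filterByExpr, Benjamini-Hochberg over all genes tested, threshold 0.05) compared Ho with Wt in each gate, without a block, and the gates, the genotype effect among gates and the Myl2 subsets with the library as a block. Levels are plain CPM, and fold changes use TMM, so that they can differ for the Tnnt2 gate. Shares of cells were taken after thinning cells to 2000 UMIs. Correlations between cluster neighbours used log2(CPM + 1), and likeness used the log2 CPM of the fit. All 10 members were tested in every comparison. Of the other lists, the genes named were called ones, up to the 4 with the largest change in each direction, and the cluster neighbours; Cdkn1c, Cd81, Mirg, Rian and the imprint maintenance genes named outside that limit were chosen after their values were seen. The members and lists were chosen with earlier results of these data known. The scripts were tested on simulated data. GENCODE M21 held 99.85% of the 32285 gene identifiers. Alternatives were DESeq2 1.42.0, RLE, other filters, other gate limits, several-gate cells assigned, doublets kept, the replicate block, and leaving out each library. The crossed replicate numbers, the genotype effect among the 5 gates with 2 libraries of each genotype, the assignment of cells meeting both the Cdh5 and Hapln1 gates, and the Myl2 split were added after the data were seen. Planned tests of an atrial subset, and of genotype in the Crabp1 and Epcam gates, were not run for lack of cells.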

Additional observations from a re-analysis of the deposited data

Results flagged for a closer look

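The 4346 cells that met the Cdh5 and the Hapln1 gate and no other were left out of the gates, and 3 of the 10 genes had a higher median in them than in any gate, while 1, Grb10, had a lower one. H19 had a median of 2209.9 CPM over the 4 libraries (2149 to 2234), against 2035 in the Cdh5 gate, which had the highest gate median. Mest had a median of 1715.1 CPM (1514 to 1796), against 1590 in the Cdh5 gate, and Plagl1 had 162.8 CPM (154 to 165), against 153. Grb10 had a median of 136.5 CPM (131 to 144), against 167 in the Cdh5 gate, its lowest gate median. The libraries of the Cdh5 gate overlapped these ranges for all 4 genes, and the differences were not tested.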

How the results depend on the processing

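Depth limited the smaller gates, where Dlk1 rested on 8 UMIs in the Cdh5 gate of Ho2 and Plagl1 on 1 in the Epcam gate of Wt2. Of the called gate contrasts of the 10 genes, 508 of 531 alternative values kept their direction and their call, 23 lost the call and 0 turned, and all 99 values of the 9 called Myl2 contrasts held. Meg3, not called there, was called at -0.43 with strict gates (edgeR adjusted p = 6.32e-08) and at 0.72 with loose gates (adjusted p = 1.58e-09), and ranged from -0.03 (without Ho replicate 1) to 0.07 when each library was left out. The cause of these changes was not tested.

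Genes called between Ho and Wt in the Tnnt2 gate numbered 5, against 18 with DESeq2, 190 with no filter, 9 with loose gates, 11 with strict gates and 0 with doublets kept, and 1 of the 10 members was called with DESeq2 and with no filter. In the Cdh5 gate 0 became 2 with DESeq2 and 123 with no filter. In the Hapln1 gate 3 became 13 with DESeq2, 196 with no filter and 1 with doublets kept, and 1 member was called with no filter. In the Isl1 gate 0 became 1 with DESeq2 and 104 with no filter, with 1 member. In the Upk3b gate 1 became 47 with no filter (1 member), 0 with at least 10 counts, 6 with several-gate cells assigned (1 member) and 2 with doublets kept.

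At least 10 counts in every sum left 2959 genes called among gates, 6 members and 27 of 42 contrasts, because fewer genes were tested. Genes whose genotype effect differed among gates numbered 3, against 46 with DESeq2 (1 member), 1 with RLE, 479 with no filter (5 members), 1 with at least 10 counts, 25 with strict gates, 12 with several-gate cells assigned and 13 with Cdh5 and Hapln1 cells in the Cdh5 gate (1 member). DESeq2 called 4519 genes in the Myl2 contrast. With strict gates the genotype test of the Isl1 gate was not run.

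Leaving out each library in turn gave 51 to 121 genes and 0 to 2 members in the Tnnt2 gate, 0 to 428 and 0 to 2 in the Cdh5 gate, 1 to 233 and 0 to 1 in the Hapln1 gate, 0 to 114 and 0 to 2 in the Isl1 gate, 9 to 45 and 0 to 1 in the Upk3b gate, and 0 to 50 and 0 to 1 for the interaction. The counts of genes were highest without Ho replicate 2 in the Cdh5, Hapln1, Isl1 and Upk3b gates and for the interaction. In the Tnnt2 gate they were highest without Wt replicate 2. The counts of members in the Hapln1 gate and for the interaction were highest without Ho replicate 1. The members called between Ho and Wt with a library left out were Dlk1 in the Tnnt2 gate without Wt replicate 1 (-0.72), Wt replicate 2 (-0.97) or Ho replicate 2 (-1.07), Meg3 and Dlk1 in the Cdh5 gate (0.62 and 0.87), Nnat and Mest in the Isl1 gate (-1.68 and -1.85) and Phlda2 in the Upk3b gate (-2.03) without Ho replicate 2, Dlk1 in the Cdh5 gate (-1.96, the opposite direction) and Plagl1 in the Hapln1 gate (0.56) without Ho replicate 1, and Phlda2 in the Tnnt2 gate (-0.67) without Wt replicate 2. In each of these fits 1 group held 1 library, so that the other group alone gave the spread. For the interaction the member called was Phlda2 without Ho replicate 1, which left Ho2 as the only Ho library.

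With the replicate block the Tnnt2 gate had 50 genes called and 1 member, Dlk1 (-0.85, edgeR adjusted p = 0.00214), the Hapln1 gate 69 genes, the Isl1 gate 2 and the Upk3b gate 7. Deviations of same-numbered libraries had correlations of -0.0775, -0.0812, -0.0235, -0.2761 and 0.0414 in the Tnnt2, Cdh5, Hapln1, Isl1 and Upk3b gates. With 2 libraries of each genotype these values cannot tell whether same-numbered libraries were processed together, and the labels do not say. Crossed numbers called 41 genes (1 member), 19, 38, 2 and 7 in those gates.

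Without thinning, H19 was found in 98.88% of Cdh5 cells and in 22.18% of macrophages. Phlda2 was found in 19.06% of Isl1 cells and 6.06% of Tnnt2 cells, and Dlk1 in 60.06% and 7.88%. Of 84 macrophages 4 had a Phlda2 UMI and 5 a Dlk1 UMI. With 5000 UMIs Dlk1 was found in 41.97% of Isl1 cells and 5.27% of Tnnt2 cells, and Phlda2 in 2.93% of Tnnt2 cells.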

Other observations

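Of the imprinted genes outside the 10, called ones with large changes are named here and do not stand for the lists as a whole. In the Tnnt2 gate 66.6% of all genes tested were called. In the Tnnt2 gate Cobl, an actin nucleator, was higher by a log2 fold change of 4.03 ± 0.27 (edgeR adjusted p = 3.7e-12), with 22.3 CPM (Wt1), 23.3 (Wt2), 22.5 (Ho1) and 21.8 CPM (Ho2), against at most 1 UMI in each library of the Cdh5 gate. Nap1l5 (2.19), Ddc (1.20) and Igf2r (1.13), the receptor that clears IGF2, were also higher there, and the chloride channel gene Ano1 (-4.18), Peg10 (-2.0), Peg12 (-1.77) and Tspan32 (-1.67) were lower.

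In the Upk3b gate Tspan32 (3.26), Cobl (2.70), Ddc (2.41) and Ano1 (2.24) were higher than in the other gates and Gatm (-2.81), which makes a precursor of creatine, was lower. Gatm had 63.2 CPM (Wt1), 65.1 (Wt2), 105 (Ho1) and 51.2 CPM (Ho2) in the Cdh5 gate, against 2.67 to 3.93 CPM in the Tnnt2 gate.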
